A study of Rattus norvegicus with 6 samples.

Results

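Cell cycle genes were followed in the renal cortex of rats given o-nitroanisole, a nitroaromatic compound and rodent carcinogen, and of rats given its vehicle. The list held 38 rat genes of proliferating cells in 3 role groups: 3 regulators of the entry into DNA replication, 11 genes of S phase and 24 genes of G2 and mitosis. Members were found through the RefSeq accession of each array probe, which matched 33 of the 38 genes with 71 probes, among 15284 gene symbols and 61657 non-control probes on the array. Mki67, Top2a, Bub1b, Melk and Mcm5 had no matched probe and are not described here, so the proliferation marker Mki67 gave no value.

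All 6 animals were male Sprague-Dawley rats, 5 weeks old at purchase, and each gave 1 one-colour (Cy3) Agilent array of total cortex RNA. The control group was 3 rats given corn oil for 4 weeks, and the treated group was 3 rats given o-nitroanisole at 400 mg/kg/day for the same 4 weeks. The labels call the 3 arrays of a group biological replicates, and 1 dose and 1 time were studied. The comparison asks whether transcripts of dividing cells differ in the treated cortex.

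A cell commits to division when cyclin D and cyclin E kinases switch off the retinoblastoma proteins and free E2F, which turns on the genes of DNA replication. Genes of G2 and mitosis follow later in the cycle, when B-MYB and FOXM1 act at their promoters, many of which carry a CHR element (cell cycle genes homology region) beside CCAAT boxes. In resting cells the same sites are held by the DREAM repressor complex. Adult kidney tubule cells divide rarely and can re-enter the cycle after damage.

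Promoter sequences are shown for members of both later phases, to set the letters of these elements beside the values. The RefSeq promoter table of build GRCr8 gave a window of 300 bases (250 before and 50 after the listed start) for 23 of the 33 members on the array. The windows were searched on both strands for CHR as TTTGAA or TTCGAA, for E2F as TTTCGCGC, TTTGGCGC or TTTCCCGC, and for the CCAAT box as CCAAT. The 250 bases before the start are shown for a pair of G2 and mitosis members, Cdc20 (chr5:137255800-137256049, minus strand) and Ccnb1 (chr2:33655226-33655475, minus strand). They are followed by a pair of S phase members, Mcm6 (chr13:42404353-42404602, minus strand) and Mcm3 (chr9:30733747-30733996, minus strand). Each is read 5′ to 3′ along the gene, and capitals mark the motif matches. The listed start lay at the outer end of the gene's range for 9 of the 23 windows and inside it for 14, and these 4 genes were picked from the 9 after their matches were seen.
Cdc20: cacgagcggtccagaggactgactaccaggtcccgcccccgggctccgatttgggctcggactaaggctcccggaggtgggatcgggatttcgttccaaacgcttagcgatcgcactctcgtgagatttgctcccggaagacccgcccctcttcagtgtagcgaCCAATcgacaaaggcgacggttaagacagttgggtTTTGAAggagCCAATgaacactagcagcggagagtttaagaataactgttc
Ccnb1: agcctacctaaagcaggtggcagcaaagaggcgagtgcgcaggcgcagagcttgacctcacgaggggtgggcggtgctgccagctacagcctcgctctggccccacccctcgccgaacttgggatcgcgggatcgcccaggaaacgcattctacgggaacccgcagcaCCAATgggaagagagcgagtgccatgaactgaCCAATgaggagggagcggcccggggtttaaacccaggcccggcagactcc
Mcm6: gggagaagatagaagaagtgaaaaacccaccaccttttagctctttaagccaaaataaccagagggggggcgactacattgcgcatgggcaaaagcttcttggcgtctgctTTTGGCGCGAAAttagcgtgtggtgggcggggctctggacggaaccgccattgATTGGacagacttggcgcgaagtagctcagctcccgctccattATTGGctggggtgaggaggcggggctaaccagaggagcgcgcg
Mcm3: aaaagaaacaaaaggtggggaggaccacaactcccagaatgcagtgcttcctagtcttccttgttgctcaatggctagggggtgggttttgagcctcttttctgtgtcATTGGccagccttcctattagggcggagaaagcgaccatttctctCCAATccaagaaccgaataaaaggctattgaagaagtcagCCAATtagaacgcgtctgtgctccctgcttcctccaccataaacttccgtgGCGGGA
In Mcm6 the capital run TTTGGCGCGAAA holds an E2F match on each strand, and these overlap. The match at the end of the Mcm3 stretch runs on past the start. The Ccnb1 window holds CCAAT matches and no CHR match, and the Mcm6 and Mcm3 windows hold CCAAT matches as well. Of the G2 and mitosis windows, 9 of 14 held a CHR match, against 3 of 8 S phase windows and 19.5% of all 27457 windows. E2F matches were found in 5 of 8 S phase windows, 1 of 14 G2 and mitosis windows (Cdk1) and 1.82% of all windows. CCAAT was present in 12 of 14 G2 and mitosis windows, 5 of 8 S phase windows and 37.7% of all. Kif11 had a CCAAT match and no CHR match, but its listed start lies 41951 bases inside the range of the gene. Of the other windows whose start is the end of the gene range, Bub1 held no match, Kif20a and Pcna held CCAAT alone, Rrm1 held CHR and CCAAT and no E2F match, and Plk1 held CCAAT and a CHR match past the start. These matches describe the letters and show no binding.

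Levels below are log2 processed signal relative to the array's 75th percentile, so a level of 0 is that percentile. Levels of different genes come from different probes and are not compared. Differences are log2, o-nitroanisole minus corn oil, each given ± limma's moderated SE (standard error) over 3 rats per group, and adjusted p-values are Benjamini-Hochberg values over all 32428 features tested. The 75th percentile was 905 to 1041 signal units, and between 66.4% and 71.5% of the probes that are not controls passed the scanner software's test of being well above background. Proximal tubule markers such as Lrp2 and Slc34a1 were well above background on every array, 7 of 7 listed. The 3 arrays of each group shared a slide and a scan that held no array of the other group, so slide, scan and group cannot be told apart in any difference given here.

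All 33 members entered the test, and 32 were well above background on all 6 arrays. Aurkb was so on 3 corn oil and 2 o-nitroanisole arrays. With limma defaults 0 of the 33 passed an adjusted p of 0.05, beside 0% of all features, and 0.0711 was the smallest value over all features. At an adjusted p under 0.10 there were likewise 0 members, beside 1.11%. An unadjusted p under 0.05 was reached by 2 members, Kif11 and Ccnd1, both higher, which is 6.06% of the members. Over all features the share was 18.9%, with 11.8% higher and 7.12% lower. The trend and robust setting of limma, under which 1.61% of all features passed an adjusted p of 0.05, called 1 member, Kif11. Groups did not overlap for Kif11 and Foxm1, 6.06% of members beside 27.2% of all features (17.6% higher and 9.56% lower). Over the 33 members 14 differences were above 0 and 19 below, with a median of -0.08, beside 56% above 0, 44% below 0 and a median of 0.03 over all features. In the default fit the members' shares at an unadjusted p under 0.05 and without overlap lay below those of all features. Their share below 0 lay above that of all features, and these gaps were not tested.

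**Figure D1:**
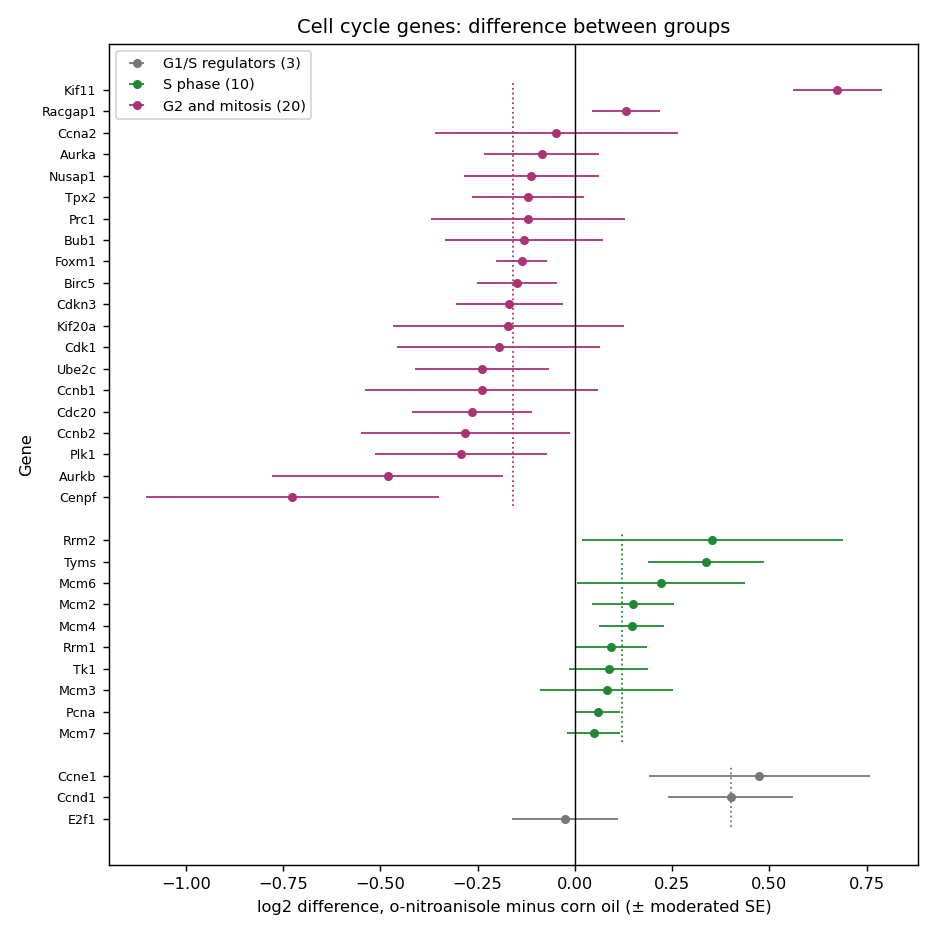
Log2 difference (x axis, o-nitroanisole minus corn oil) of the 33 tested cell cycle genes (y axis), with bars for the moderated SE and dotted lines for the median of each role group (0.40 for 3 G1/S regulators, 0.12 for 10 S phase genes, -0.16 for 20 genes of G2 and mitosis). All S phase points lie above 0, and all G2 and mitosis points except Kif11 and Racgap1 lie below it, most of them within 2 SE of 0.

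The G1/S regulators had the largest median difference of the role groups, 0.40, from 3 genes. Ccnd1, which encodes cyclin D1 and starts the phosphorylation of retinoblastoma protein, lay at 3.22, 3.78 and 3.41 in corn oil and at 3.84, 3.76 and 4.02 in o-nitroanisole. The groups overlapped through corn oil replicate 2, which was above o-nitroanisole replicate 2. The difference was 0.40 ± 0.16 (limma adjusted p = 0.262), and the 3 Ccnd1 probes gave 0.18 to 0.40.

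Ccne1, which encodes cyclin E1, the partner of CDK2 at the start of S phase, lay at -3.20, -3.41 and -3.75 in corn oil and at -3.42, -3.10 and -2.42 in o-nitroanisole. O-nitroanisole replicate 3 was the highest array, and replicate 1 of that group lay inside the corn oil range. The difference of 0.47 ± 0.28 did not pass the test (limma adjusted p = 0.425) and was 0.19 without o-nitroanisole replicate 3. E2f1, the transcription factor itself, differed by -0.03 ± 0.14, with probes from -0.19 to 0.21.

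By the brightest probe of each, all 10 tested S phase genes had differences above 0, beside 56% above 0 over all features. Their median was 0.12, with a range from 0.05 to 0.35. None passed the test with limma (smallest adjusted p 0.300), and none had groups that did not overlap. Pcna, the sliding clamp of DNA polymerases, lay at 1.74, 1.78 and 1.70 in corn oil and at 1.77, 1.82 and 1.80 in o-nitroanisole. Corn oil replicate 2 was above o-nitroanisole replicate 1, and the spread within each group was narrow. The difference was 0.06 ± 0.06 (limma adjusted p = 0.603), and under normexp background correction it was -0.06.

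Mcm2, a subunit of the replicative helicase, lay at -1.01, -0.89 and -1.14 in corn oil and at -1.03, -0.81 and -0.76 in o-nitroanisole. O-nitroanisole replicate 1 was below corn oil replicates 1 and 2. The difference was 0.15 ± 0.11 (limma adjusted p = 0.491). A dimmer Mcm2 probe differed by 0.65, with a signal of 302 units on o-nitroanisole replicate 2 and 89.4 to 123 units on the other arrays. The other helicase subunits differed by 0.05 for Mcm7, 0.08 for Mcm3, 0.15 for Mcm4 and 0.22 for Mcm6.

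The enzymes of nucleotide supply lay between 0.09 and 0.35. Rrm2, the regulated subunit of ribonucleotide reductase, differed by 0.35 ± 0.34, and its 4 probes ranged from -0.17 to 0.35. Tyms, thymidylate synthase, differed by 0.34 ± 0.15, the smallest p of these genes. Tk1, the cytosolic thymidine kinase, and Rrm1, the large ribonucleotide reductase subunit, each differed by 0.09.

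The median over the S phase genes stayed above 0 with each array left out, from 0.06 without corn oil replicate 3 to 0.19 without o-nitroanisole replicate 1. Without o-nitroanisole replicate 3 the median was 0.07, and 8 of 10 genes were above 0 in place of 10. Under normexp it was 0.19, with 9 of 10 above 0. It was 0.09 with a gene's probes averaged and 0.06 with every probe tested singly, each with 9 of 10 above 0. The lowest tested probes of Rrm1, Rrm2, Mcm3 and Mcm4 gave -0.19, -0.17, -0.07 and -0.08.

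Among the 20 tested genes of G2 and mitosis, 18 had differences below 0 and 2 above it, with a median of -0.16 and a range from -0.73 to 0.68. None of the 18 had a limma unadjusted p under 0.05, beside 7.12% of all features that were lower at that p. In bulk cortex, a change in the number of dividing cells and one in RNA per cell cannot be told apart. Cdk1, the kinase that drives entry into mitosis, lay at 0.88, 1.21 and 0.57 in corn oil and at 0.21, 1.02 and 0.85 in o-nitroanisole. The groups overlapped widely: corn oil replicate 2 was highest and o-nitroanisole replicate 1 lowest. The difference was -0.20 ± 0.26 (limma adjusted p = 0.721), and it was 0.04 without o-nitroanisole replicate 1.

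Ccnb1, cyclin B1, the partner of CDK1, lay at -1.94, -1.37 and -2.37 in corn oil and at -2.54, -1.98 and -1.88 in o-nitroanisole. It had the same highest and lowest array as Cdk1. The difference was -0.24 ± 0.30 (limma adjusted p = 0.700), and it was 0.02 without corn oil replicate 2. Ccnb2 differed by -0.28 and Ccna2, the cyclin of S phase and early mitosis, by -0.05. The 3 tested Ccna2 probes gave -0.38 to -0.05.

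Cenpf, a large kinetochore protein, had the largest negative difference of the members. It lay at -3.48, -3.05 and -4.06 in corn oil and at -4.86, -4.21 and -3.69 in o-nitroanisole, so that corn oil replicate 3 was below o-nitroanisole replicate 3. The difference was -0.73 ± 0.38 (limma adjusted p = 0.365), its 3 tested probes ranged from -0.73 to 0.01, and it was -0.42 without o-nitroanisole replicate 1 and -0.34 ± 0.18 under normexp.

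Aurkb, the kinase of the chromosomal passenger complex, lay at -5.40, -4.89 and -5.43 in corn oil and at -6.33, -5.42 and -5.42 in o-nitroanisole. O-nitroanisole replicate 1 stood below the rest, and the other arrays of that group lay beside corn oil replicates 1 and 3. The difference was -0.48 ± 0.30 (limma adjusted p = 0.436), and -0.18 without o-nitroanisole replicate 1. Under normexp background correction it was -0.08 ± 0.09. Birc5 (survivin), of the same complex, differed by -0.15.

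The regulators of mitotic progress lay in the same range. Plk1, the polo kinase, differed by -0.29 (-0.12 under normexp) and Cdc20, which activates the anaphase-promoting complex, by -0.26. The ubiquitin-conjugating enzyme Ube2c of that complex differed by -0.24, the checkpoint kinase Bub1 by -0.13 and the spindle kinase Aurka by -0.08. Genes of the spindle and of cytokinesis lay between -0.17 and -0.11 for Kif20a, Prc1, Tpx2 and Nusap1, and Racgap1, a regulator of the cleavage furrow, lay at 0.13. The other tested probes of Plk1, Bub1, Aurka and Prc1 gave -0.29, -0.68, -0.05 and -0.36. The 3 Racgap1 probes gave 0.13 to 0.24.

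Cdkn3, a phosphatase that acts on cyclin-dependent kinases, lay at -3.87, -3.70 and -3.61 in corn oil and at -3.88, -3.68 and -4.13 in o-nitroanisole. O-nitroanisole replicate 3 was lowest, and o-nitroanisole replicate 2 was above corn oil replicates 1 and 2. The difference was -0.17 ± 0.14 (limma adjusted p = 0.547), and -0.02 under normexp.

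Kif11 ran against its group. It encodes Eg5, the kinesin that pushes spindle poles apart, and lay at 2.11, 2.32 and 2.51 in corn oil and at 2.92, 3.02 and 3.03 in o-nitroanisole. Every o-nitroanisole array was above every corn oil array. The difference of 0.68 ± 0.11, 1.60-fold, had an adjusted p of 0.103 with limma defaults and 0.0404 with the trend and robust setting. A second tested probe gave 0.45 ± 0.10, also without overlap, from -0.71, -0.56 and -0.37 in corn oil and -0.11, -0.09 and -0.10 in o-nitroanisole. The remaining Kif11 probe was too dim to be tested. With each array left out Kif11 stayed between 0.57 and 0.77. Its adjusted p in the trend and robust setting was then 0.0492 without corn oil replicate 3 and above 0.05 in each of the other 5 fits, up to 0.137.

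Foxm1, the transcription factor of G2 and mitosis genes, lay at -1.45, -1.41 and -1.48 in corn oil and at -1.59, -1.51 and -1.66 in o-nitroanisole. The groups did not overlap, by a narrow gap. The difference was -0.14 ± 0.07 (limma adjusted p = 0.332), and a second, dimmer probe gave -0.79 ± 0.22, without overlap as well. Under normexp the difference was -0.23 ± 0.06.

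**Figure D2:**
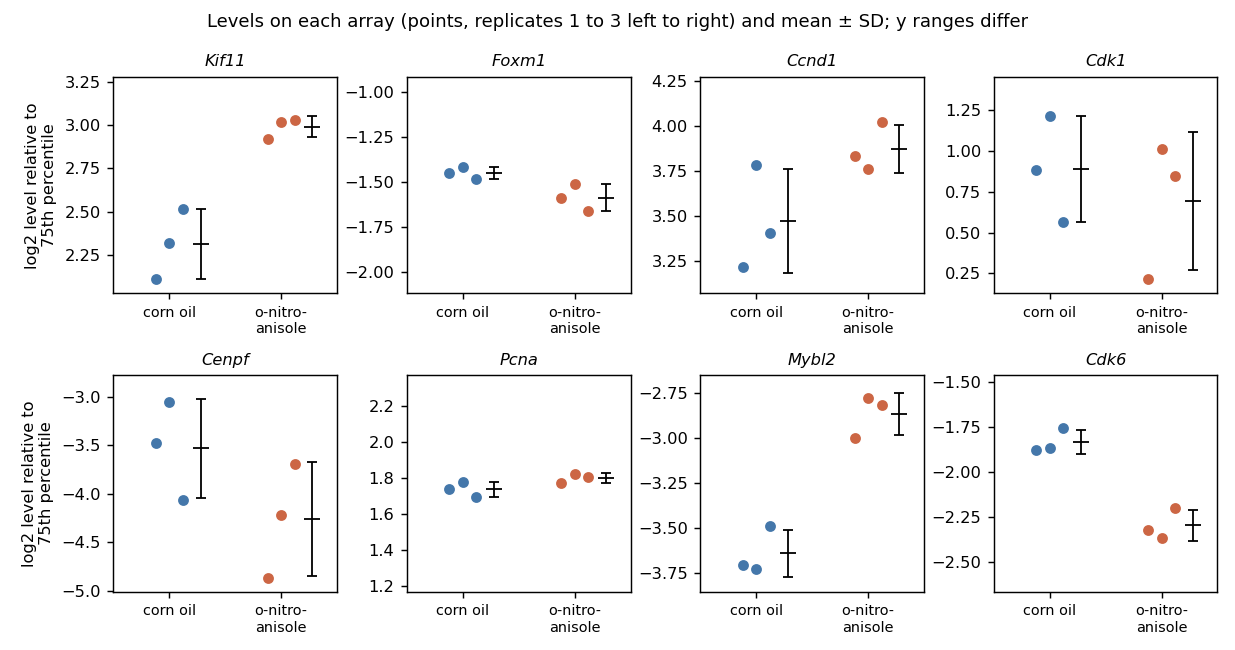
Level (y axis, log2 relative to the array's 75th percentile) on each array for 6 members and for the further genes Mybl2 and Cdk6, with corn oil in blue, o-nitroanisole in orange, and black bars for the mean ± SD of 3 rats. The y ranges differ between panels: Kif11, Foxm1, Mybl2 and Cdk6 show groups that do not overlap, while the arrays of Ccnd1, Cdk1, Cenpf and Pcna overlap.

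Within each group the genes of G2 and mitosis varied together from rat to rat. Corn oil replicate 2 was the highest corn oil array for 17 of 20 of them, beside 36.4% of all features. Corn oil replicate 3 was the lowest for 18 of 20, beside 33.6% of all features, and o-nitroanisole replicate 1 was the lowest of its group for 18 of 20, beside 36.6%. Kif11 and Cdkn3 were the members for which corn oil replicate 3 was the highest corn oil array.

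The median range between the 3 rats of a group was 0.52 in corn oil and 0.55 in o-nitroanisole for these genes, while the median absolute difference between groups was 0.17. Over all features the ranges were 0.22 and 0.23 beside a median absolute difference of 0.13, so the range was the larger there as well. A range over 3 rats and a difference between group means are unlike measures. The difference exceeded both within-group ranges for 1 of 20 G2 and mitosis genes, Kif11, for 0 of 10 S phase genes and for 17.8% of all features. S phase genes spread less, with ranges of 0.23 and 0.29 beside a median absolute difference of 0.12.

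**Figure D3:**
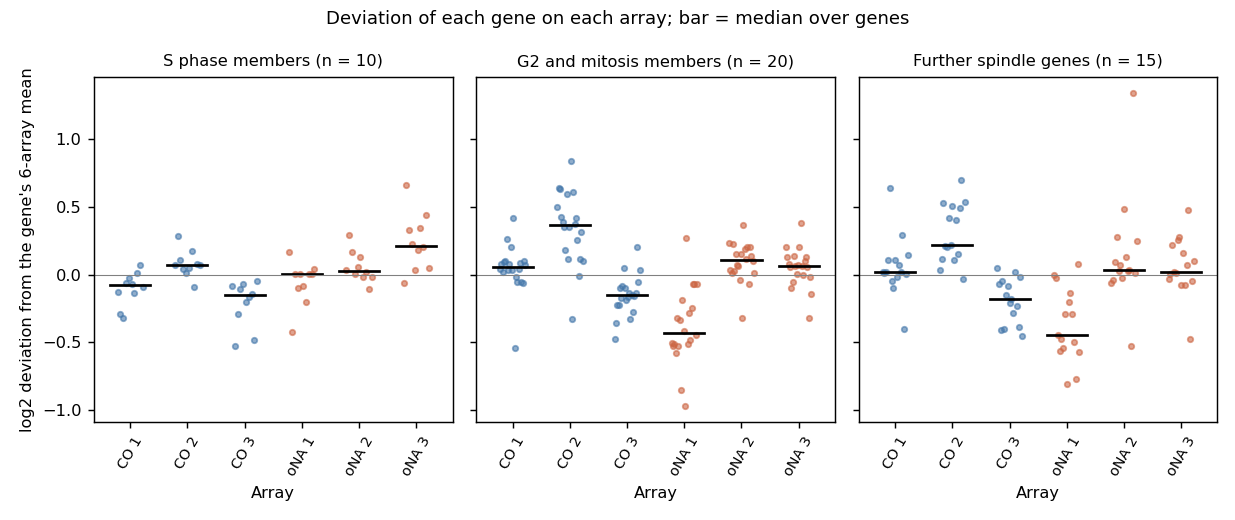
Deviation of each gene from its mean over the 6 arrays (y axis, log2) on each array (x axis; CO, corn oil; oNA, o-nitroanisole), for 10 S phase genes, 20 genes of G2 and mitosis and 15 further spindle genes, with black bars for the median over genes. In the last 2 panels corn oil replicate 2 stands highest, at medians of 0.36 and 0.22, and o-nitroanisole replicate 1 lowest, at -0.43 and -0.45.

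Summed up as the median deviation of the 20 genes from their own 6-array means, G2 and mitosis stood at 0.06, 0.36 and -0.15 in corn oil and at -0.43, 0.11 and 0.06 in o-nitroanisole. Corn oil replicate 2 was high and o-nitroanisole replicate 1 low, and the remaining 4 arrays lay between -0.15 and 0.11 with both groups mixed. The S phase genes stood at -0.08, 0.07 and -0.15 in corn oil and at 0.00, 0.02 and 0.21 in o-nitroanisole, and these groups overlapped through corn oil replicate 2. O-nitroanisole replicate 3 was the highest of its group for 8 of 10 S phase genes, and corn oil replicate 2 for 9 of 10.

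S phase was set against mitosis within each rat by subtracting these medians. The difference was -0.14, -0.29 and 0.00 in corn oil (mean -0.14 ± 0.15, SD, n = 3) and 0.43, -0.08 and 0.15 in o-nitroanisole (mean 0.17 ± 0.26, SD, n = 3). The groups overlapped, since o-nitroanisole replicate 2 lay below corn oil replicate 3. No test was run on this score, whose members were chosen with results of these arrays known.

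The negative median of the G2 and mitosis genes rested on a pair of arrays. It was -0.03 without corn oil replicate 2, with 8 of 20 genes above 0, and -0.03 without o-nitroanisole replicate 1, with 9 of 20 above 0. Without 1 of the other 4 arrays it lay between -0.29 and -0.18, with 2 of 20 above 0.

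**Figure D4:**
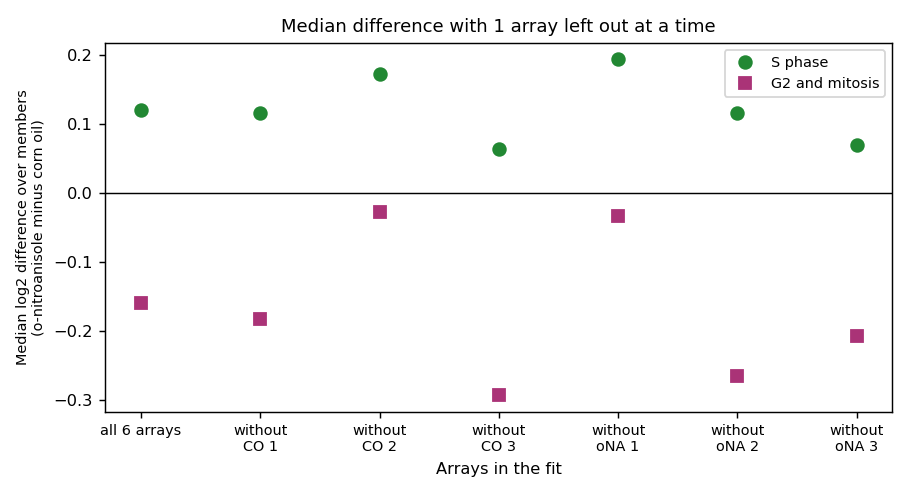
Median log2 difference over the 10 S phase genes (green circles) and the 20 genes of G2 and mitosis (purple squares) with all 6 arrays and with each array left out in turn (x axis; CO, corn oil; oNA, o-nitroanisole). The S phase median stays between 0.06 and 0.19, while the G2 and mitosis median moves to -0.03 without corn oil replicate 2 or o-nitroanisole replicate 1.

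A wider list of 97 further cell cycle genes, in 7 sublists by role, gave 81 genes on the array and 75 tested. Their differences lay above 0 for 33 and below for 42, with a median of -0.03. With limma defaults 0 passed an adjusted p of 0.05, beside 0% of all features. An unadjusted p under 0.05 was found for 12, 7 higher and 5 lower, which is 16% beside 18.9% of all features, and groups did not overlap for 19, 25.3% beside 27.2%. Both shares lay near those of all features.

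The 15 further genes of the spindle, kinetochore and cytokinesis had the array order of the mitotic members. Of these, 12 lay below 0, with a median of -0.12, and none had an unadjusted p under 0.05 with limma. Their median deviation was 0.02, 0.22 and -0.18 in corn oil and -0.45, 0.03 and 0.02 in o-nitroanisole, with the same array highest and the same array lowest as for the 20 members. Corn oil replicate 2 was the highest of its group for 12 of 15 and o-nitroanisole replicate 1 the lowest for 11 of 15. The 24 further genes of replication licensing and forks were split, 12 above and 12 below 0, with a median of 0.00. The S phase members had 10 of 10 above 0, and the gap between these lists was not tested.

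Among the further genes, the smallest limma p-value was that of a transcription factor of G2 and mitosis genes, Mybl2. Mybl2, which encodes B-MYB, lay at -3.70, -3.72 and -3.49 in corn oil and at -3.00, -2.78 and -2.82 in o-nitroanisole. All o-nitroanisole arrays were above all corn oil arrays. The difference was 0.77 ± 0.10 (adjusted p = 0.0820 with limma defaults and 0.0426 with the trend and robust setting), its 3 probes gave 0.28 to 0.77, and under normexp it was 0.41 ± 0.09.

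Rbl2, the pocket protein p130 of the DREAM complex, lay at 2.09, 2.18 and 2.09 in corn oil and at 2.49, 2.47 and 2.43 in o-nitroanisole, again without overlap. The difference was 0.34 ± 0.06 (adjusted p = 0.105 with limma defaults and 0.0383 with the trend and robust setting), while a second Rbl2 probe gave 0.04. With each array left out, neither Mybl2 nor Rbl2 passed 0.05 in the trend and robust setting, with adjusted p from 0.0765 to 0.138 for Mybl2 and from 0.0532 to 0.130 for Rbl2. Plk1, Ccnb1 and Cdc20 above, picked from the genes that B-MYB and FOXM1 are known to switch on, had differences below 0 that did not pass the test. Cdc25b, a gene of the entry into mitosis, went the other way at 0.72 ± 0.17 and did not pass it either (limma adjusted p = 0.141). Targets of these factors were not tested as a set.

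Cyclins and their kinases went both ways. Cdk6, a cyclin D kinase, lay at -1.88, -1.87 and -1.76 in corn oil and at -2.32, -2.37 and -2.20 in o-nitroanisole. All o-nitroanisole arrays were below all corn oil arrays, and the difference was -0.46 ± 0.07 (limma adjusted p = 0.0979), with a second probe at -0.13 and a value of -0.27 under normexp. Ccnd2, cyclin D2, differed by -0.32 ± 0.09 (limma adjusted p = 0.169), against the sign of Ccnd1, and Ccne2, cyclin E2, by 0.76 ± 0.25 (limma adjusted p = 0.206), which was 0.25 ± 0.08 under normexp.

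Among replication genes, Cdc6, a loader of the MCM helicase, differed by -0.25 ± 0.07 (-0.04 under normexp) and Pola1, the catalytic subunit of DNA polymerase alpha, by -0.30 ± 0.11. At the entry into mitosis, Cdc25b, which activates CDK1, differed by 0.72 ± 0.17, and Wee1, which inhibits it, by 0.39 ± 0.12. Cdc27, a subunit of the anaphase-promoting complex, differed by -0.30 ± 0.07, and a second probe gave -0.02. The 3 Wee1 probes gave 0.13 to 0.48, and the 3 Cdc25b probes 0.72 to 0.98. Each of these 5 genes had groups that did not overlap and a limma adjusted p between 0.134 and 0.222. The 6 tested inhibitors of cyclin-dependent kinases had a median of 0.01, 3 above and 3 below 0, and Cdkn1a (p21) differed by -0.04 ± 0.11 (limma adjusted p = 0.874).

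Other cell types in the tissue also carry cell cycle transcripts, and their markers were read on the same arrays as sums of linear levels in units of the 75th percentile. Erythroid markers were higher on all o-nitroanisole arrays, with 6 of 7 tested genes above 0 and sums of 172 to 198 in corn oil and 265 to 318 in o-nitroanisole. Without the beta globin Hbb the sums were 12.2 to 14.4 and 20.8 to 22.5. In corn oil most of that sum came from Slc4a1 and Tfrc, which differed by 0.67 and -0.14. The smaller parts Alas2 and Ahsp differed by 1.55 and 1.98. Hba1 and Gata1 were among the listed markers that gave no tested value. Neutrophil markers, 3 of 3 tested genes above 0, summed to 0.273 to 0.310 in corn oil and 0.566 to 0.880 in o-nitroanisole, with Mpo and Elane not tested. Most of this sum came from S100a8 and S100a9, whose groups did not overlap. The remaining gene, Csf3r, differed by 0.17 ± 0.22, and its groups overlapped.

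Lymphocyte markers, 2 of 4 tested genes above 0, summed to 0.287 to 0.590 in corn oil and 0.373 to 0.438 in o-nitroanisole, and macrophage markers, 1 of 4 above 0, to 3.67 to 3.92 and 3.43 to 4.60. Both ranges overlapped between the groups. Proximal tubule markers, 5 of 7 above 0, summed to 998 to 1061 in corn oil and 1124 to 1188 in o-nitroanisole. Collecting duct markers, 4 of 5 above 0, summed to 118 to 127 and 136 to 152.5, and endothelial markers, 3 of 5 above 0, to 28.5 to 30.1 and 30.3 to 33.8, in the same order of groups. Sums of loop of Henle and distal tubule markers had the opposite order, at 475 to 519.7 in corn oil and 405 to 431 in o-nitroanisole. Umod made up most of these sums and differed by -0.25 ± 0.07. The other 2 of 3 tested genes, Slc12a3 and Calb1, were above 0, at 0.39 and 0.64. Podocyte markers, 3 of 4 above 0, overlapped, with 25.3 to 28.8 and 28.05 to 32.4. The part of these cells in the cell cycle values was not tested.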

How the data were processed

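Spots were quantified by Agilent Feature Extraction (10.7, as the submitters' processing notes have it). The intensity used, the processed signal, had been background-subtracted and detrended on its own array, per the file headers. The deposited value table holds the same signal as a ratio to the array's 75th percentile, which was checked within 1%. Its 3 corn oil columns are ordered otherwise than the scanner files, whose numbers are used here. The headers name build rn4, for which no genome was used. A level is log2 of this signal after division by the 75th percentile of the array's non-control probes, with outlier spots missing. Through RefSeq accessions, 27460 of 33356 accession-bearing probes were named in a GRCr8 gene table. Probes were tested where all arrays of 1 group or both measured them well above background, 84 spike-in probes left out, and the brightest probe stood for a gene. This gave 32428 features, 11815 with a symbol.

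The test was limma (3.58.1, under R 4.3.3; lmFit and default eBayes), and p-values were adjusted by Benjamini-Hochberg with a threshold of 0.05, after a trial on simulated data. Having 3 arrays per group limits the precision. Equal replicate numbers were not taken as pairs of rats: correlations of the deviations of same-numbered arrays were 0.091, 0.058 and 0.026, under the 0.1 set for pairing. Tables and plots used Python 3.11.15, pandas 2.3.3, numpy 2.4.6 and matplotlib 3.10.9. Values on every array are given for members with an unadjusted p under 0.05 or without overlap, for the 3 largest other differences and for Cdk1, Ccnb1, Pcna, Mcm2, Ccnd1 and Cdkn3. Of further genes, up to 3 per sublist with the smallest unadjusted p under 0.05, and Cdkn1a, are named, except 1 gene that is not reported here. Members, lists and the rule were chosen with earlier results of these data known. Of 17 other settings 15 were run, and 1 was added after seeing the data, the trend and robust setting with each array left out. Matching by gene name was not run, since no gene name column was read, nor the slide block, since no slide held both groups. Normexp used the median signal and background with an offset of 50.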

Additional observations from a re-analysis of the deposited data

How the results depend on the processing

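Genes called numbered 0 with limma defaults, 522 with the trend and robust setting, 117 under normexp and 359 at an adjusted p under 0.10. Leaving out 1 array gave 0 to 4 with defaults. With trend and robust, a combination added after seeing the data, it gave 6, 62 and 69 without corn oil replicates 1, 2 and 3 and 35, 0 and 24 without o-nitroanisole replicates 1, 2 and 3. Members called were 0 with defaults and 1 of 33 with trend and robust (0 to 1 with 1 array left out). Further cell cycle genes called were 2 of 75 with trend and robust, beside 1.61% of all features. At an adjusted p under 0.10 with defaults they were 2 of 75, beside 1.11% of all features. Members at an unadjusted p under 0.05 were 2 of 33 in the default fit, beside 6142 of 32428 features. They were 6 under normexp (7125 of 32428 features), 1 with quantile scaling (5431 of 32428) and 1 without a dim filter (5504 of 49397). With 1 array left out they were 1 to 3, beside 4614 of 32903 to 5802 of 32479 features. With a replicate block they were 1 (5377 of 32428 features), and 6 with the value table's corn oil numbering (5105 of 32428). The block called 0 genes and changed no other call. The median of the further genes was -0.0630 to 0.0464 with 1 array left out, above 0 without o-nitroanisole replicate 1.

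Of 872 alternative values of 45 single genes, 844 kept direction and side of the threshold, 4 passed it and 24, in 16 genes, changed sign. These were Ccna2 with array weights (0.0263), E2f1 (0.115), Pcna (-0.0563) and Tpx2 (0.0131) under normexp, Mcm4 with every probe tested singly (-0.0019) and Rrm1 with probes averaged (-0.0112). With 1 array left out the ranges were Aurka -0.177 to 0.0614, Bub1 -0.258 to 0.0439, Ccna2 -0.296 to 0.193, Ccnb1 -0.479 to 0.0209, Cdk1 -0.357 to 0.0433, Cdkn1a -0.108 to 0.0623, E2f1 -0.105 to 0.119, Kif20a -0.379 to 0.0891, Mcm3 -0.0710 to 0.205, Nusap1 -0.214 to 0.0465, Prc1 -0.289 to 0.0905 and Tk1 -0.0042 to 0.160. The cause was not tested. Signal over background limits Aurkb, which 1 array did not show well above background.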

Other observations

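Some probes stood high on a single array, and these were picked after their values were seen. Cdt1, a licensing factor that loads the MCM helicase, lay at -1.04 on o-nitroanisole replicate 3 and between -5.50 and -4.49 on the other 5 arrays, a signal of 440 units against 20.8 to 44.1. A second Cdt1 probe, well above background on 2 of 6 arrays, had 20.0 units on that array and 7.31 to 17.3 on the others. A Bub1 probe left out as too dim had a signal of 167 units on o-nitroanisole replicate 3 and 2.79 to 6.94 on the others. A Cenpf probe likewise left out had 98.3 units on corn oil replicate 1 and 4.53 to 20.0 on the others. Incenp, which anchors the chromosomal passenger complex, lay at 0.48 on corn oil replicate 2 and 1.13 on o-nitroanisole replicate 2 and between -0.99 and -0.60 on the other 4 arrays, from 1 tested probe.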
